A study of Mus musculus with 8 samples.

Results

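The 10 genes described here set the commitment of a cell to division and were followed in the developing mouse retina: the D-type cyclins Ccnd1, Ccnd2 and Ccnd3, the E-type cyclin Ccne1, the cyclin-dependent kinase (CDK) inhibitors Cdkn1a, Cdkn1b, Cdkn1c, Cdkn2c and Cdkn2d, and Rb1. They were taken by gene symbol, with earlier results of these data known. All 10 were found among 21827 genes and had a value in all 8 libraries. RNA was sequenced from whole retinas of wild-type slc:ICR mice at embryonic days 15 (E15) and 18 (E18), and from retinal cells sorted at postnatal days 2 (P2), 5 (P5) and 8 (P8) into a Cd73-positive fraction (Cd73PC) and a Cd73-negative fraction (Cd73NC). Cd73 is a surface nucleotidase carried by photoreceptors, so Cd73PC are labelled as photoreceptors and Cd73NC as the other retinal cells. Retinas were pooled before sorting, and each condition has 1 library. No difference could therefore be set against a replicate error, and each comparison is of 2 libraries with no test, except a fit over the 3 stages that takes the fractions of each stage as a pair.

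Expression is given as FPKM, a measure scaled to the number of mapped fragments and to transcript length, which allows levels of different genes to be compared. Differences are log2 ratios of FPKM + 1, read against a 1.5-fold threshold on that scale, and plain folds are ratios of the FPKM itself. Cufflinks, the program that estimated FPKM, gave each value a lower and an upper confidence bound, which cover the estimate within 1 library and not the variation between animals. The FPKM lay above its own upper bound in 18 of the 88 deposited values of the 10 genes, including all 8 values of Cdkn1b and 6 of 8 of Ccnd1, so overlap of bounds is given only as a description.

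As background, mitogens induce D-type cyclins, which activate Cdk4 and Cdk6, and these kinases phosphorylate the retinoblastoma protein encoded by Rb1. Phosphorylated Rb releases E2F transcription factors, which drive Ccne1 and the genes of DNA replication, and cyclin E with Cdk2 completes the step into S phase. Inhibitors of the Ink4 family (Cdkn2c, Cdkn2d) block Cdk4 and Cdk6, those of the Cip/Kip family (Cdkn1a, Cdkn1b, Cdkn1c) act more broadly, and in the retina progenitors leave the cycle as they give rise to neurons and Müller glia, with rods among the late-born types.

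The fractions differed in the RNA used to sort them. Nt5e, which encodes Cd73, had FPKM of 2.43 (Cd73NC) and 97.3 (Cd73PC) at P2, of 31.4 and 131 at P5, and of 9.38 and 124 at P8. For 7 rod markers the summed FPKM came to 50.4 and 3215 on P2, 805 and 7073 on P5, and 770 and 11770 on P8, so rod transcripts were present in Cd73NC at every stage. Retinal ganglion cell markers, 5 of 5 with a value, summed to 815 at E15 and 501 at E18 and to between 1.76 and 12.8 in the 6 sorted libraries, and erythroid markers, 3 of 3, summed to between 36.5 and 5170 with the highest sum in Cd73NC at P8. Library depth, read from the steps of low FPKM values, was 0.966 to 1.62 times that of E18, and the absolute depth is unknown. In bulk RNA of this kind, fewer cells of a type and less RNA per cell cannot be told apart.

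**Figure D1:**
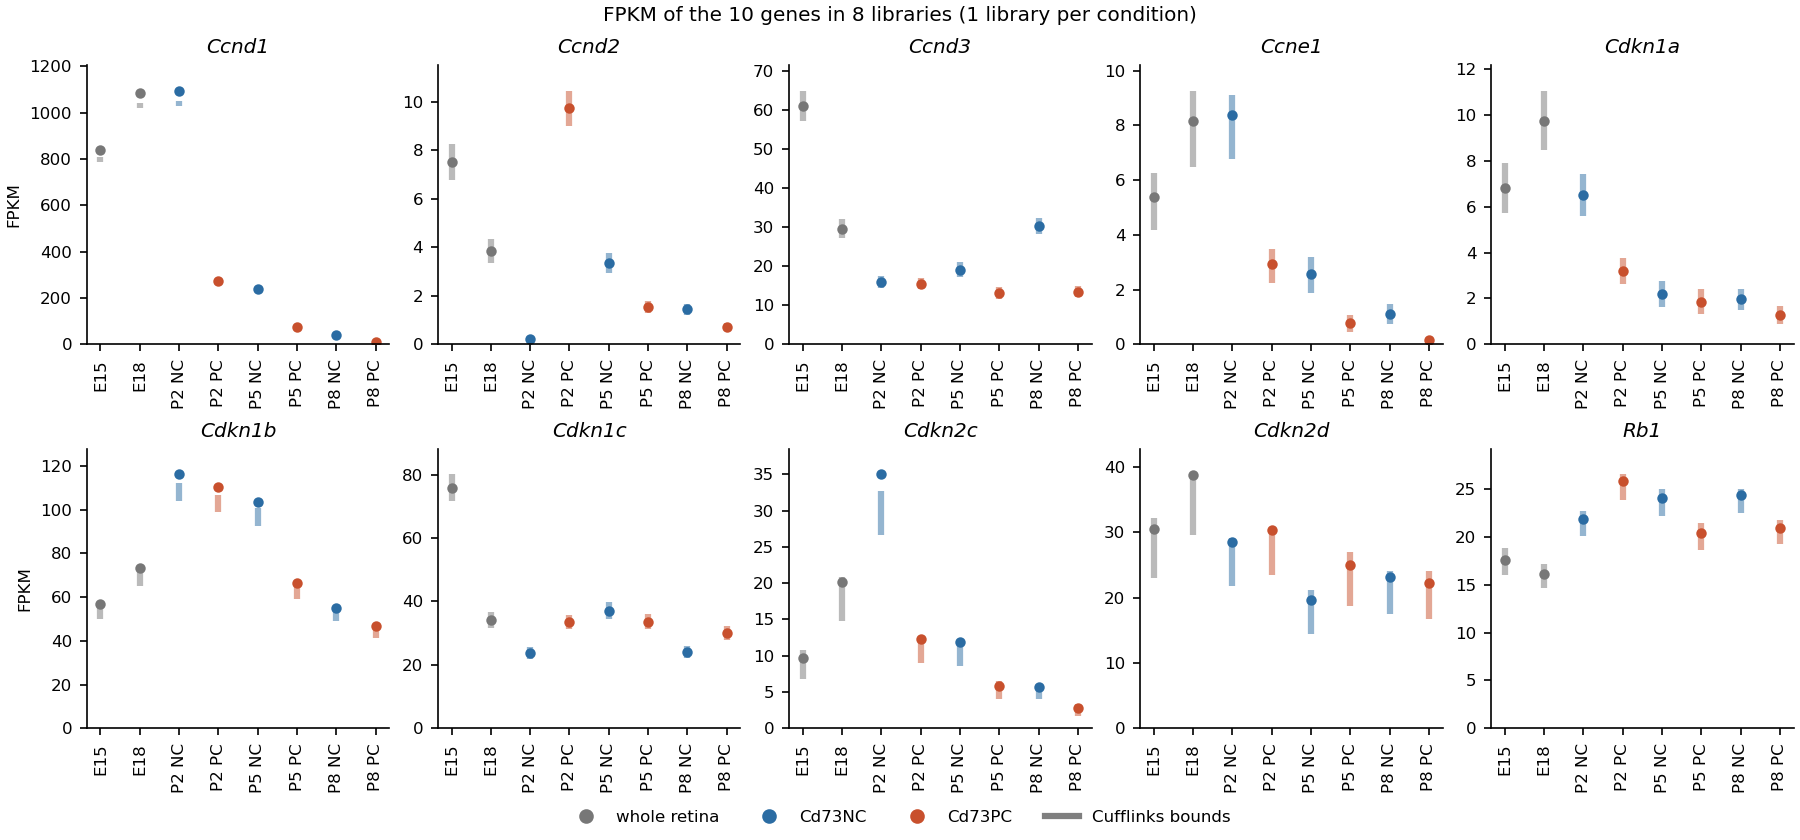
FPKM (vertical axes, linear and starting at 0) of each of the 10 genes in the 8 libraries (horizontal axes), with points for the deposited FPKM and thick bars for the Cufflinks bounds. Ccnd1, Ccne1 and Cdkn2c were highest in Cd73NC at P2 and lowest in Cd73PC at P8, whereas Rb1 stayed between 16.1 and 25.8.

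Ccnd1, the main cyclin partner of Cdk4 in the retina, had the highest level of the 10 genes in 6 of the 8 libraries and the widest range. Its FPKM was 839 at E15 and 1084 at E18, 1095 in Cd73NC and 272 in Cd73PC at P2, 240 and 76.3 on P5, and 41.8 and 9.31 on P8. Both embryonic retinas and Cd73NC at P2 were high, every later stage was lower, and Cd73PC was below Cd73NC at each stage. The highest level was 118 times the lowest, a span of 6.73 on the log2 scale of FPKM + 1, against a median span of 1.21 over the 13431 genes with an FPKM of at least 1 in some library. The bounds of neighbouring libraries in this order overlapped only for Cd73NC at P2 and E18. Ccnd1 lies at chr7:152115836-152125830 (NCBI37/mm9).

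Ccnd2, a D-type cyclin that is often used by neural progenitors, was expressed at a low level and in another order. Its FPKM was 7.50 at E15 and 3.85 at E18, then 0.239 in Cd73NC and 9.75 in Cd73PC at P2, 3.34 and 1.53 on P5, and 1.44 and 0.722 on P8. The highest and the lowest of the 8 levels were thus the 2 fractions of the same stage, P2, and at P5 and P8 the order of the fractions was the opposite. The bounds at P2 were 0.145 to 0.326 in Cd73NC and 8.99 to 10.5 in Cd73PC. Ccnd2 lies at chr6:127075727-127101066 and overlaps 9330179D12Rik, which was listed at 0 in 7 of the 8 libraries and at 0.0727 in E18.

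Ccnd3, the D-type cyclin that often persists in differentiating cells, had 61.0 FPKM at E15 and 29.6 at E18, with 16.1 in Cd73NC and 15.6 in Cd73PC on P2, 19.2 and 13.2 on P5, and 30.3 and 13.5 on P8. E15 was highest, Cd73NC at P8 came next, and the 3 levels of Cd73PC lay between 13.2 and 15.6 with overlapping bounds between neighbours. Ccnd3 lies at chr17:47642000-47736637 and overlaps Bysl, whose FPKM was between 9.0 and 14.1. The libraries did not mark strand, so reads in a stretch shared by these genes cannot be told apart.

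The summed FPKM of the 3 D-type cyclins went from 1112 in Cd73NC at P2 to 73.6 at P8, and from 297 to 23.6 in Cd73PC. Ccnd1 made up 92.4% of this sum at E15, 97.0% at E18 and 98.5% in Cd73NC at P2, but 56.8% in Cd73NC and 39.5% in Cd73PC at P8. Ccnd3 was the larger part in Cd73PC at P8, with 57.4% of the sum, and Ccnd2 never exceeded 3.28%.

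Ccne1, whose product activates Cdk2 at the entry to S phase, followed Ccnd1 at a level below it in every library. Its FPKM was 5.40 at E15 and 8.15 at E18, 8.37 in Cd73NC and 2.92 in Cd73PC at P2, 2.56 and 0.778 on P5, and 1.13 and 0.149 on P8. The order matched that of Ccnd1 except that Cd73NC at P8 lay above Cd73PC at P5, with overlapping bounds. In Cd73PC at P8 the bounds were 0.0267 to 0.267. Across the 8 libraries Pearson's r of log2(FPKM + 1) between Ccne1 and Ccnd1 was 0.97, a description over libraries that share stages and sorts. Ccne1 lies at chr7:38883003-38892509.

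Of the Cip/Kip inhibitors, Cdkn1a (p21), a target of p53, was the lowest. Its FPKM was 6.80 at E15 and 9.74 at E18, 6.49 in Cd73NC and 3.19 in Cd73PC at P2, 2.19 and 1.84 on P5, and 1.96 and 1.28 on P8. The embryonic retinas and Cd73NC at P2 were again the 3 highest, and the bounds of neighbours overlapped throughout the 5 lowest levels. Cdkn1a lies at chr17:29227931-29237667.

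Cdkn1b (p27), which holds cells out of the cycle in many tissues, was the most abundant inhibitor in 7 of the 8 libraries. Its FPKM was 56.6 at E15 and 73.2 at E18, 116 in Cd73NC and 110 in Cd73PC at P2, 104 and 66.6 on P5, and 55.2 and 46.7 on P8. Both fractions at P2 were the highest, and at P5 Cd73NC was still near that level while Cd73PC was not. The highest level was 2.49 times the lowest. Cdkn1b lies at chr6:134870419-134875543.

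Cdkn1c (p57), an imprinted inhibitor, exceeded Cdkn1b only at E15. Its FPKM was 75.6 at E15 and 34.1 at E18, 23.6 in Cd73NC and 33.5 in Cd73PC at P2, 37.0 and 33.6 on P5, and 24.0 and 30.0 on P8. E15 stood above the other libraries, and Cd73PC varied little, from 30.0 to 33.6. Cdkn1c made up 54.4% of the summed Cip/Kip FPKM at E15 and between 16.2% and 38.5% afterwards, when Cdkn1b made up 59.9% to 79.4%. Cdkn1c lies at chr7:150644244-150646955.

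Cdkn2c (p18) was the inhibitor with the widest range. Its FPKM was 9.71 at E15 and 20.1 at E18, 35.0 in Cd73NC and 12.3 in Cd73PC at P2, 11.9 and 5.84 on P5, and 5.68 and 2.77 on P8. Like the cyclins Ccnd1 and Ccne1, it was highest in Cd73NC at P2, lower in Cd73PC at each stage and lowest in Cd73PC at P8, a 12.6-fold range. Its level at E15 was below those at E18 and in both fractions at P2. For Ccnd1 and Ccne1, E15 was above Cd73PC at P2, and the Cdkn2c bounds of E15 and of Cd73PC at P2 overlapped. Cdkn2c lies at chr4:109333481-109337977.

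Cdkn2d (p19), an Ink4 inhibitor found in differentiated neurons, is listed in the deposited tables at 2 loci, chr9:21092908-21095653 and chr9:123836860-123839607. The annotation of the same build (GENCODE vM1) names the gene at the second locus Gm4694. The spliced models of both genes are 1271 bases long and differ by 1 substitution, G211A, with positions counted from the first base of the coding sequence, Cdkn2d first. Of the 1236 windows of 36 bases, the read length, in this sequence, 1200 (97.1%) occur in both copies. The stretch around the difference is shown because only reads that cover the base in capitals tell the copies apart, from the NCBI37/mm9 genome at chr9:21093672-21093742 on the minus strand and chr9:123838773-123838843 on the plus strand.
Cdkn2d: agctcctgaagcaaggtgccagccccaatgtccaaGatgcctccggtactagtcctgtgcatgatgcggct
Gm4694: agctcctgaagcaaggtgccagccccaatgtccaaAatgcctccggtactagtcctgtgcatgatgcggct

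The FPKM listed for the loci were close to each other in every library, for example 16.3 and 14.2 at E15 and 11.5 and 10.8 in Cd73PC at P8, and which copy was transcribed cannot be told from them. Summed over both loci, the FPKM of Cdkn2d was 30.5 at E15 and 38.8 at E18, 28.5 in Cd73NC and 30.4 in Cd73PC at P2, 19.6 and 25.1 on P5, and 23.1 and 22.3 on P8. The sum varied by 1.98-fold, and the summed bounds of all 7 pairs of neighbours in the order overlapped. Cdkn2c made up 55.1% of the summed Ink4 FPKM in Cd73NC at P2, and Cdkn2d was the larger part in every other library, up to 88.9% in Cd73PC at P8.

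Rb1 itself, which encodes the target of the cyclin D kinases, had the narrowest range of the 10 genes. Its FPKM was 17.6 at E15 and 16.1 at E18, 21.9 in Cd73NC and 25.8 in Cd73PC at P2, 24.1 and 20.4 on P5, and 24.3 and 20.9 on P8. The 6 sorted libraries lay above both embryonic retinas, and the highest level was 1.60 times the lowest. Rb1 lies at chr14:73595309-73725598 and contains Lpar6, whose FPKM was between 0.852 and 7.93.

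**Figure D2:**
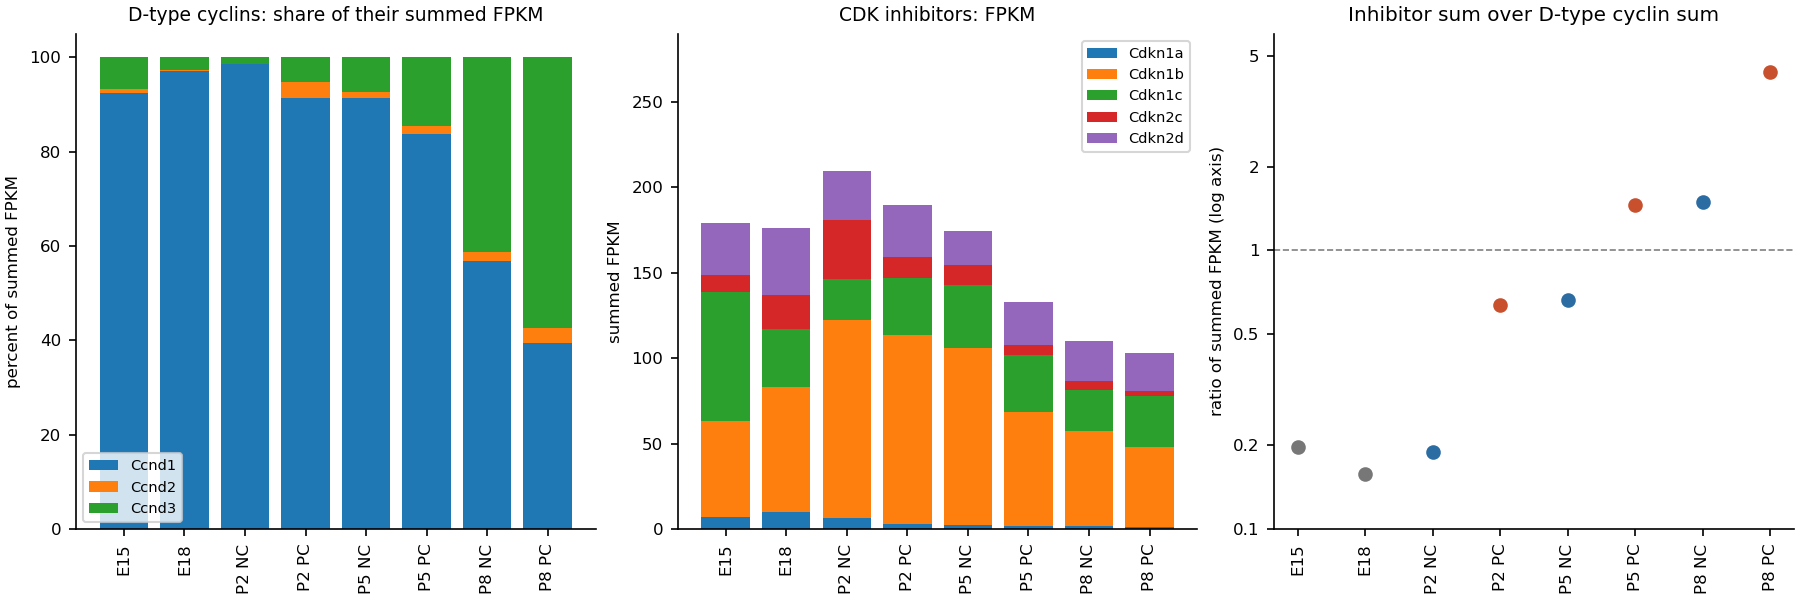
Left, share of each D-type cyclin in their summed FPKM (percent) by library. Middle, FPKM of the 5 CDK inhibitors stacked by library. Right, ratio of the summed inhibitor FPKM to the summed D-type cyclin FPKM on a log axis, with grey for whole retina, blue for Cd73NC and red for Cd73PC; it ran from 0.158 at E18 to 4.37 in Cd73PC at P8.

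Set against the D-type cyclins, the 5 inhibitors varied less as a group. Their summed FPKM was 179 at E15, 176 at E18, and between 103 (Cd73PC at P8) and 210 (Cd73NC at P2) in the sorted libraries. The ratio of inhibitor to D-type cyclin FPKM was 0.198 at E15, 0.158 at E18 and 0.189 in Cd73NC at P2, then 0.639 in Cd73PC at P2 and 0.663 in Cd73NC at P5, then 1.46 in Cd73PC at P5 and 1.49 in Cd73NC at P8, and 4.37 in Cd73PC at P8. Cd73PC at P2 and P5 thus stood near Cd73NC of the next stage in this ratio. It is a ratio of RNA levels and not of proteins.

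The fractions were then compared at each stage, to ask which of the 10 genes differed between photoreceptors and other retinal cells. At P2, 1 gene was higher in Cd73PC past 1.5-fold and 4 were lower, with a background over all 13420 genes of 13.7% higher and 23.3% lower. Ccnd2 was the higher one, with 40.7 times the FPKM of Cd73NC and a log2 ratio of 3.12. The lower ones were Ccnd1 (log2 ratio -2.01), Cdkn2c (-1.44), Ccne1 (-1.26) and Cdkn1a (-0.84). Ccnd3, Cdkn1b, Cdkn2d and Rb1 had log2 ratios between -0.07 and 0.23, and Cdkn1c had 0.49. Among the 13420 genes, 89 had a log2 ratio at least as high as that of Ccnd2, itself included, and 70 one at least as low as that of Ccnd1.

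The sorted libraries at P2 also differed in marker transcripts of cell types other than rods. The summed FPKM of the astrocyte markers Gfap and Pax2 was 0.280 in Cd73NC and 6.24 in Cd73PC, with neither at 0, and that of 5 microglia markers was 5.88 and 33.3, with none at 0. Of 5 endothelial markers, which summed to 169 and 35.1, Kdr alone gave 139 and 29.7, and Pecam1, Cdh5 and Tek were at or below 0.223 in both. Cone (137 in Cd73NC and 1388 in Cd73PC), bipolar (4.90 and 11.9) and horizontal cell (1.29 and 2.18) markers also summed higher in Cd73PC. Müller glia (1090 and 478), ganglion cell (12.8 and 4.81) and erythroid (106 and 36.5) markers summed lower. The part of any of these cells in the Ccnd2 difference was not tested. The astrocyte sum was 8.54 (Cd73NC) and 3.33 (Cd73PC) at P5 and 6.84 and 2.63 at P8, and the microglia sum was 43.0 and 28.9 at P5 and 115 and 90.4 at P8.

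**Figure D3:**
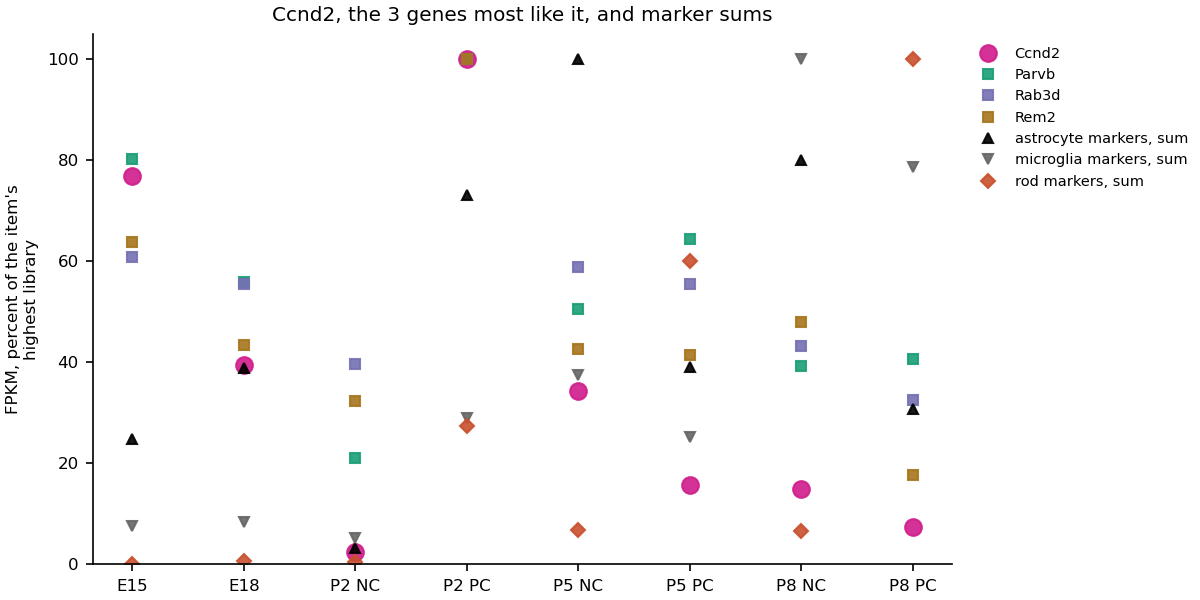
FPKM of Ccnd2, of the 3 genes most like it and of the summed astrocyte, microglia and rod markers in each library (horizontal axis), as percent of the item's own highest library (vertical axis). In Cd73NC at P2, Ccnd2 stood at 2.45%, the astrocyte sum at 3.27%, the microglia sum at 5.11% and the rod sum at 0.428%. In Cd73PC at P2 they stood at 100%, 73.0%, 29.0% and 27.3%, in the same order. The astrocyte sum was highest in Cd73NC at P5, where Ccnd2 stood at 34.3%.

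At P5, none of the 10 genes was higher in Cd73PC and 5 were lower, against 11.3% and 25.1% of all genes. The lower ones were Ccnd1 (log2 ratio -1.64), Ccne1 (-1.0), Cdkn2c (-0.91), Ccnd2 (-0.78) and Cdkn1b (-0.63). Cdkn1b was near the threshold and lost its place when libraries were scaled to a common upper quartile (-0.53), and Ccnd2 did so under quantile normalization (-0.33). Cdkn1a, which was lower at P2, had a log2 ratio of -0.17 with overlapping bounds.

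At P8, none was higher in Cd73PC and 4 were lower, against 12.1% and 29.6% of all genes. The lower ones were Ccnd1 (log2 ratio -2.05, 4.49-fold in FPKM), Ccnd3 (-1.11), Ccne1 (-0.89) and Cdkn2c (-0.83), of which Cdkn2c was within the threshold under quantile normalization (-0.37). Ccnd2 had a log2 ratio of -0.50 on FPKM + 1 and a fold of 2.00 in FPKM. It passed the threshold with a pseudocount of 0.1 (-0.91), and its log2 ratio was 0.00074 after quantile normalization. Its order of fractions at P8 thus depended on the scaling. Cdkn1c (0.31), Cdkn2d (-0.05), Cdkn1b (-0.23) and Rb1 (-0.21) were within the threshold. Cdkn1a was also within it (-0.37, with overlapping bounds). In plain FPKM Cdkn1a was 1.53-fold lower in Cd73PC, and its log2 ratio was 0.20 after quantile normalization.

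**Figure D4:**
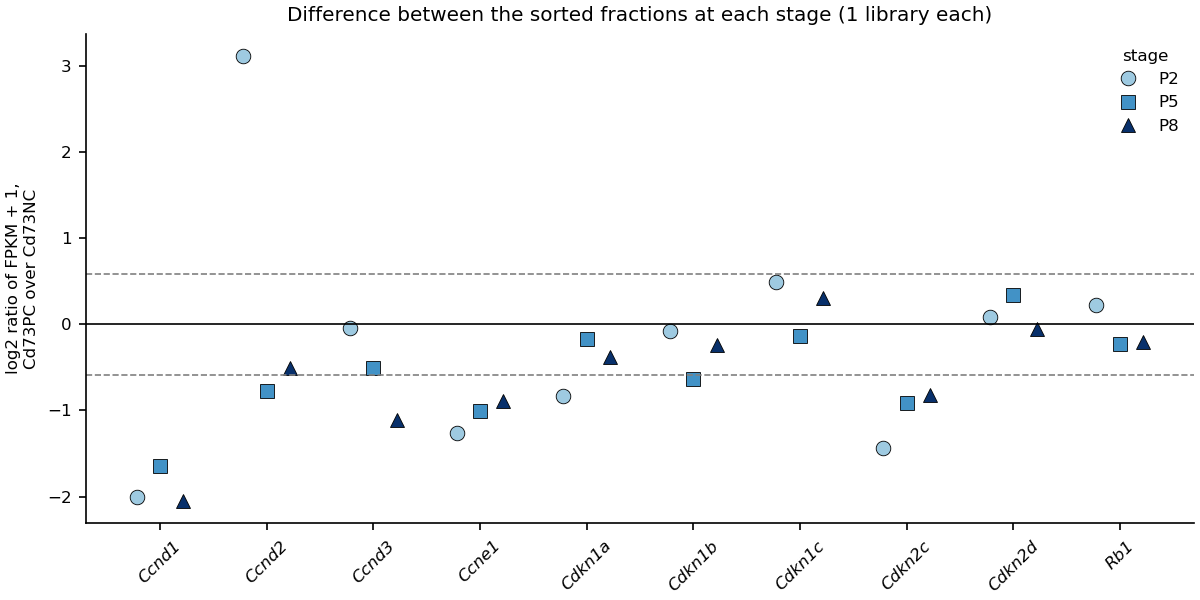
Log2 ratio of FPKM + 1 in Cd73PC over Cd73NC (vertical axis) for each of the 10 genes (horizontal axis) at P2, P5 and P8, with dashed lines at 1.5-fold in each direction; each point compares 2 libraries. Ccnd1, Ccne1 and Cdkn2c were below the lower line at all 3 stages, and Ccnd2 at P2 was the one point above the upper line.

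Over the 3 stages, Ccnd1, Ccne1 and Cdkn2c were lower in Cd73PC past 1.5-fold each time, and Cdkn1c, Cdkn2d and Rb1 were within it each time. Over the 10 genes the median log2 ratio came to -0.06 (P2), -0.57 (P5) and -0.44 (P8), beside -0.13, -0.17 and -0.22 over all genes tested, and the value at P2 was 0.004 after upper-quartile scaling. These medians of all genes moved to -0.08, -0.10 and -0.09 after upper-quartile scaling and to -0.04, 0 and 0.02 after quantile normalization. Of all genes called, the share that was higher in Cd73PC was 31.0% for P5 and 29.0% for P8, and quantile normalization raised these shares to 48.1% and 48.2%. None of the 10 genes past the threshold changed direction under either scaling.

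The 6 sorted libraries were also fitted together, with the fractions of each stage as a pair. Here stages stand in for replicates, so a difference that changes with age counts as error. By limma with Benjamini-Hochberg adjustment over 13415 genes, none of the 10 genes was higher in Cd73PC and 3 were lower, against 8.48% and 18.6% of all genes. Each gene had only 2 residual degrees of freedom, to which the prior drawn from all genes added 3.19. Before adjustment, 5683 genes (42.4%) had a limma p under 0.05. Ccnd1 was lower by a mean log2 ratio of -1.90 (95% interval -2.27 to -1.54, adjusted p = 0.0039), Ccne1 by -1.05 (-1.50 to -0.60, adjusted p = 0.015) and Cdkn2c by -1.06 (-1.53 to -0.59, adjusted p = 0.016), each in 3 of 3 stages. After quantile normalization Ccnd1 kept an adjusted p of 0.0036, whereas Ccne1 had 0.052 and Cdkn2c 0.061. Without P5 none of the 10 genes, and none of all genes, had an adjusted p under 0.05, and 3371 genes had an unadjusted p under it. Ccnd2 had a mean of 0.61 with an interval from -1.41 to 2.64, and that of Rb1 was -0.07 (-0.45 to 0.31).

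Change with age was compared from P2 to P8 within each fraction. In Cd73PC, none of the 10 genes was higher at P8 and 6 were lower, against 10.3% and 23.7% of all genes. They were Ccnd1 (29.2-fold in FPKM, log2 ratio -4.73), Ccnd2 (-2.64), Cdkn2c (-1.82), Ccne1 (-1.77), Cdkn1b (-1.22) and Cdkn1a (-0.88). Cdkn1a was within the threshold under quantile normalization (-0.52). Ccnd3, Cdkn1c, Cdkn2d and Rb1 had log2 ratios between -0.43 and -0.16. Of all genes called, 30.3% were higher at P8, and this share was 42.6% after upper-quartile scaling and 49.2% after quantile normalization.

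In Cd73NC, 2 genes were higher at P8 and 5 were lower, against 20.9% and 23% of all genes. Ccnd1 was lower by a log2 ratio of -4.68 (26.2-fold in FPKM), followed by Cdkn2c (-2.43), Ccne1 (-2.14), Cdkn1a (-1.34) and Cdkn1b (-1.06). Ccnd2 (0.98) and Ccnd3 (0.88) were higher. Ccnd2 was higher at P5 than at P8 in this fraction, so its level at P2 was the low one of the 3. Over the same days the summed FPKM of 6 bipolar markers in Cd73NC was 4.90, 48.3 and 747, with 2 of them at 0 at P2, and that of microglia markers was 5.88, 43.0 and 115. Erythroid markers summed to 106, 1377 and 5170, and rod markers to 50.4, 805 and 770. Müller glia (1090, 1511 and 1224) and cone (137, 492 and 267) markers were also higher at P8 than at P2. Ganglion cell (12.8, 1.76 and 1.86), horizontal cell (1.29, 0.493 and 0.114) and endothelial (169, 154 and 72.5) markers were lower. The part of any of these cells in the higher level of Ccnd3 was not tested.

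The time courses shared a direction past the threshold for Ccnd1, Ccne1, Cdkn1a, Cdkn1b and Cdkn2c, and differed for Ccnd2, which was lower at P8 in Cd73PC and higher in Cd73NC. The median log2 ratio of the 10 genes was -1.05 in Cd73PC and -0.68 in Cd73NC, beside -0.18 and -0.05 over all genes tested. Ccnd1 had the log2 ratio farthest from 0 of the 10 genes in both. Between P2 and P5 its FPKM was lower by 3.56-fold in Cd73PC and 4.56-fold in Cd73NC, and between P5 and P8 by 8.19-fold and 5.75-fold. Cdkn1b was lower by 1.66-fold in Cd73PC between P2 and P5, when it was 1.12-fold lower in Cd73NC, and by 1.42-fold and 1.88-fold between P5 and P8.

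**Figure D5:**
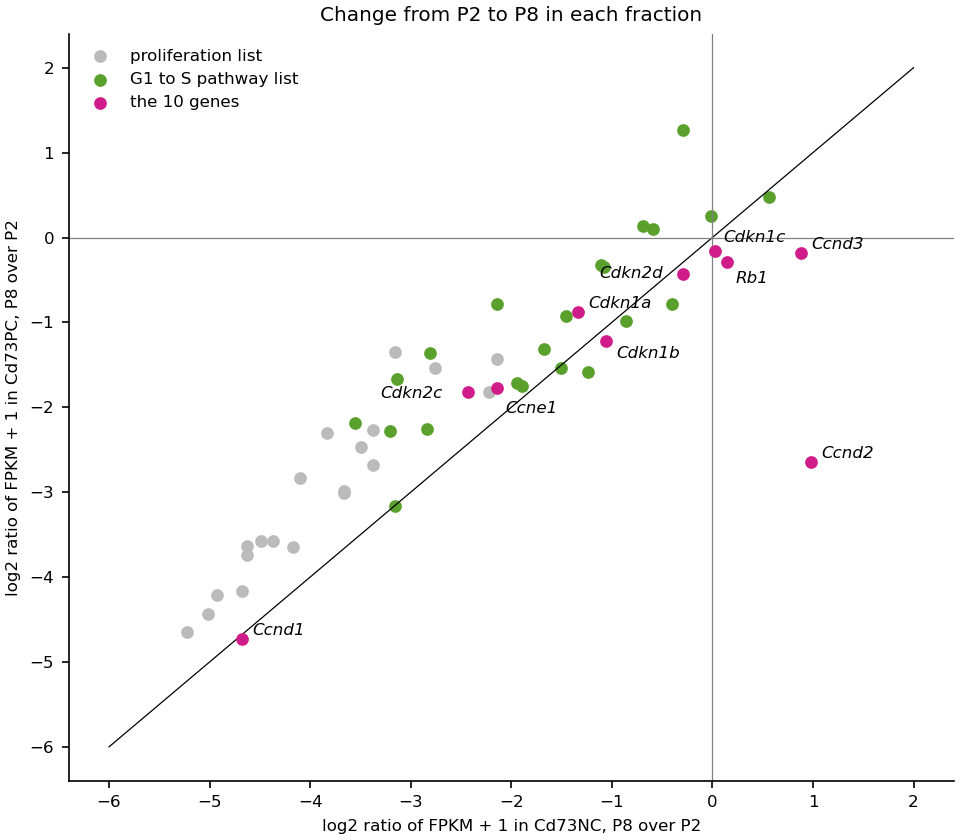
Log2 ratio of FPKM + 1 at P8 over P2 in Cd73NC (horizontal axis) and in Cd73PC (vertical axis) for the 10 genes (named), other genes of the G1 to S pathway and proliferation genes; the diagonal marks equal ratios. Ccnd1 (-4.68 and -4.73) lay near the diagonal at the lower left, Cdkn1c, Cdkn2d and Rb1 near the origin, and Ccnd2 at 0.98 and -2.64.

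The whole retinas at E15 and E18 were compared in the same way. One gene was higher at E18 past 1.5-fold, against 7.37% of all genes, and 3 were lower, against 3.31%. Cdkn2c was higher (log2 ratio 0.98, 2.07-fold in FPKM), and Cdkn1c (-1.12), Ccnd3 (-1.02) and Ccnd2 (-0.81) were lower. Ccne1 (0.52) was within the threshold and passed it with a pseudocount of 0.1 (0.59). Of all genes called, 69.0% were higher at E18, and 54.7% after quantile normalization. The summed ganglion cell markers were lower at E18 as given above, with all 5 lower. Of 3 horizontal cell markers, Onecut1 was lower (14.2 and 4.29) and Lhx1 and Calb1 were not. The part of these cells in the lower levels of Cdkn1c, Ccnd3 and Ccnd2 was not tested.

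From E18 to P2 the comparison is of whole retina with sorted cells, so age and sorting cannot be told apart. Ccnd1 and Ccne1 in Cd73NC at P2 were within 1.03-fold of E18 in FPKM, whereas in Cd73PC they were 3.99-fold and 2.79-fold lower. Cdkn1b was higher than at E18 in both fractions, by 1.59-fold in Cd73NC and 1.51-fold in Cd73PC. Cdkn2c was 1.74-fold higher in Cd73NC and 1.64-fold lower in Cd73PC, and Ccnd2 was 16.1-fold lower in Cd73NC and 2.53-fold higher in Cd73PC.

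The partners of the 10 genes were described from a list of 22 other genes of the G1 to S pathway, of which 21 passed an FPKM of 1 in some library. At P2, none was higher in Cd73PC past 1.5-fold and 16 were lower (median log2 ratio -1.02), beside 13.7% and 23.3% of all genes. At P5 the counts were 1 and 14 (median -0.78), beside 11.3% and 25.1%. At P8 they were 1 and 9 (median -0.35), beside 12.1% and 29.6%. The median FPKM of the 22 genes was 17.8 (Cd73NC) and 8.74 (Cd73PC) at P2, and 5.18 and 2.57 at P8. The added 1 therefore narrows the ratios more at P8. After quantile normalization the counts at P8 were 2 and 4 (median -0.04), beside 19% and 20.4% of all genes. From P2 to P8, 1 was higher and 15 lower in Cd73PC, beside 10.3% and 23.7% of all genes. In Cd73NC none was higher and 18 were lower, beside 20.9% and 23%.

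Cdk4, the kinase that Ccnd1 activates, was high in the same libraries and spanned a narrower range. Its FPKM was 364 at E15 and 338 at E18, 355 in Cd73NC and 168 in Cd73PC at P2, 264 and 119 on P5, and 150 and 55.4 on P8. Ccnd1 was 3.09 times the FPKM of Cdk4 in Cd73NC at P2 and 0.168 times in Cd73PC at P8. Cdk6, the alternative partner, was between 1.43 and 6.42, below Cdk4 in all libraries. Cdk2, the partner of cyclin E, was 30.4 in Cd73NC and 9.69 in Cd73PC at P2 and 3.39 and 1.24 at P8, and Ccne2, the other E-type cyclin, was 10.4 and 3.66 at P2 and 1.60 and 1.72 at P8. The fractions thus had nearly equal Ccne2 at P8. Ccne1 then differed by 7.57-fold in FPKM, a fold that rests on the low 0.149 in Cd73PC, and by a log2 ratio of -0.89 on FPKM + 1.

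Of the relatives of Rb1, Rbl1 was lower at P8 than at P2 in both fractions, and Rbl2 was not. For Rbl1 (p107), a pocket protein of cycling cells, the FPKM on P2 was 22.5 (Cd73NC) and 6.48 (Cd73PC), and on P8 it was 1.54 and 0.546. Rbl2 (p130), the pocket protein of resting cells, was 8.34 and 9.92 at P2 and 12.8 and 14.3 at P8, and the ratio of Rbl1 to Rbl2 went from 2.70 in Cd73NC at P2 to 0.0383 in Cd73PC at P8. The Rbl2 log2 ratios from P2 to P8, 0.57 in Cd73NC and 0.48 in Cd73PC, were within the threshold on the deposited FPKM + 1. In plain FPKM, Rbl2 was 1.54-fold higher at P8 in Cd73NC, past 1.5-fold, and 1.44-fold higher in Cd73PC. E2f1, an activating E2F, had the lowest log2 ratio of the list between fractions at P2 (-1.72, FPKM 63.9 in Cd73NC and 18.6 in Cd73PC). E2f3, another E2F gene, was the highest at P8 (1.05, FPKM 5.95 and 13.3) and was 2.70-fold higher at P8 than at P2 in Cd73PC. Fbxw7, which targets cyclin E for destruction, was the lowest at P8 (-2.02, FPKM 37.4 and 8.44). The Ink4 relatives Cdkn2a and Cdkn2b stayed at or below an FPKM of 1.37.

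A list of 20 proliferation genes was set beside the 10 genes. All 20 were lower in Cd73PC at P2 (median log2 ratio -1.68), beside 23.3% of all genes. At P5, 19 were lower (-1.34), beside 25.1%, and at P8, 16 were lower (-0.88), beside 29.6%. The median FPKM of the 20 at P8 was 2.68 in Cd73NC and 0.998 in Cd73PC, so the added 1 narrows the ratios there. In plain FPKM, Mcm3 was 5.13-fold lower in Cd73PC at P2 and 2.89-fold at P8, and Bub1 3.25-fold and 5.41-fold. All 20 were lower at P8 than at P2 in Cd73PC (median -2.99) and in Cd73NC (-3.96), beside 23.7% and 23% of all genes. After quantile normalization, 8 were lower and 1 was higher in Cd73PC than in Cd73NC at P8, beside 20.4% and 19% of all genes. None passed the threshold between E15 and E18 in either direction, beside 7.37% of all genes higher at E18 and 3.31% lower. At P2 the largest difference was that of Mcm3, a subunit of the replicative helicase, whose FPKM was 75.8 (Cd73NC) and 14.8 (Cd73PC). At P8 the largest on FPKM + 1 was that of Mcm5, another subunit (log2 ratio -1.31, FPKM 5.47 and 1.62). In plain FPKM it was that of Bub1, at low levels of 0.547 and 0.101. Pcna, the sliding clamp of DNA polymerase, was at 45.9 and 51.9.

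For each of the 10 genes, the 3 genes with the highest Pearson's r of log2(FPKM + 1) over the 8 libraries were taken from 6545 genes with a level of at least 5 in some library and a span of at least 1. These values are descriptions over 8 points that share stages and sorts. The genes most like Ccnd1 were Clic1 (r = 0.996), Plp2 (0.995) and 1500001M20Rik (0.994). Those most like Ccne1 were Rbbp8, Spc25 and Rbl1 (0.994 to 0.997), which act in DNA repair, at the kinetochore and as a pocket protein. Those most like Cdkn2c were Syngr2, Rell1 and Hdgf (0.98 each), and those most like Cdkn1a were 6330503K22Rik, Zfyve21 and 8430406I07Rik (0.99 each).

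For the remaining genes r was between 0.84 and 0.99. The genes most like Ccnd2 were Parvb (r = 0.90), Rab3d (0.88) and Rem2 (0.84), all highest in Cd73PC at P2, and their lowest level was a larger share of the highest than the 2.45% of Ccnd2, at 21.1% for Parvb, 32.5% for Rab3d and 17.7% for Rem2. Ccnd3 was most like Pou2f2 (0.98), Cacnb1 (0.97) and Nipa1 (0.97), and Cdkn1b most like Dazap2 (0.99), Fbxo32 (0.95) and Cald1 (0.95). Cdkn1c was most like Lcor (0.94), Foxp1 (0.91) and Usp49 (0.90). Cdkn2d was most like Epb4.1l4b (0.92), Zc3h7a (0.91) and Sfrs18 (0.91), and Rb1 most like Mbtps2 (0.94), Pdcd4 (0.93) and Rab18 (0.92). The spans of Cdkn2d (0.95) and Rb1 (0.65) were below the 1 asked of the genes searched, so genes as flat were left out. All 7 pairs of neighbouring levels of each overlapped in bounds, so the order that these r follow is uncertain. Among the 10 genes themselves, Ccnd1, Ccne1, Cdkn1a and Cdkn2c were alike, with r from 0.79 to 0.97 between pairs. With the other 9, r of Ccnd2 ran from -0.07 to 0.68. It ran from -0.63 to 0.40 for Rb1, from -0.49 to 0.66 for Ccnd3 and from -0.48 to 0.68 for Cdkn1c.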

How the data were processed

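The authors sequenced 36-base single-end reads from unstranded libraries, aligned them to NCBI37/mm9 and estimated expression with Cufflinks. The submitters' processing notes name TopHat2 2.0.8b and Cufflinks 2.1.1, with CASAVA 1.8.2 and bcl2fastq 1.8.4. The deposited FPKM values, with their lower and upper bounds, were used as given, 1 table per library. Rows with a failed estimate (4 to 10 per library) were missing values, 797 small RNA rows were left out by symbol, and rows of 1 symbol were summed. No counts were used here, so absolute depth, intervals and floors are unknown.

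Ratios were log2 of FPKM + 1, over genes with FPKM of at least 1 in at least 1 library, with a threshold of 1.5-fold. The study applied 1.5-fold to the values themselves. Among the 10 genes, Ccnd2 and Cdkn1a at P8 and Ccne1 between E15 and E18 also passed without the added 1. A limma fit of the 6 sorted libraries with stage as a block (limma 3.58.1, R 4.3.3, trended prior), its quantile-normalized form and leaving out each stage were added after the data were seen. Alternatives were a pseudocount of 0.1 or none, no filter, 2-fold, upper-quartile scaling, quantile normalization, and non-overlapping bounds. Genes named are the 10, their partners, the list genes differing most between fractions at P2 or P8, and the 3 genes most like each. Other list genes named (Cdkn2a, Cdkn2b, Bub1) and the marker genes Gfap and Pax2 were chosen after their values were seen. The genes, lists and markers were chosen with earlier results of these data known. Of 5 amacrine markers, 3 had values, and their sums are not used in a comparison. Cdkn2d copies were compared on the NCBIM37 genome with GENCODE vM1. Protein sequences and promoters were not used here. Scripts (matplotlib 3.10.9, scipy 1.17.1 and pandas 2.3.3 with numpy 2.4.6 under Python 3.11.15) were tested on simulated data. The sums of progenitor markers are not reported here.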

Additional observations from a re-analysis of the deposited data

Results flagged for a closer look

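Over the comparisons of fractions at each stage and of P8 with P2 in each fraction, Ccnd2 was the one of the 10 genes whose difference changed sign with both values past 1.5-fold. Between fractions, its log2 ratio of FPKM + 1 (Cd73PC over Cd73NC) was 3.12 at P2 and -0.78 at P5. From P2 to P8, its log2 ratio was -2.64 in Cd73PC and 0.98 in Cd73NC. All 4 values rest on 1 library per condition, and 3 of them use a library of P2, so the difference between these ratios was not tested. The bounds of Ccnd2 did not overlap between the fractions at any of the 3 stages. Each of the 4 stayed past 1.5-fold under the other pseudocounts and scalings, except the ratio at P5, which was -0.33 after quantile normalization. Outside those comparisons, Cdkn2c at P2 against E18 had a log2 ratio of 0.77 in Cd73NC and -0.67 in Cd73PC, and Cdkn1c in Cd73NC had 0.63 for P5 against P2 and -0.60 for P8 against P5, which were not tested either.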

How the results depend on the processing

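The counts of genes past 1.5-fold among the 10 kept within 1.5 times their value in all 6 comparisons under the other pseudocounts, without the filter, under both scalings and with non-overlapping bounds. A 2-fold threshold left 2 genes at P5, 2 at P8 and 2 between E15 and E18, since fewer genes can pass it. Of the 60 log2 ratios, 7 moved by more than 1.5-fold with a pseudocount of 0.1 and 7 with none, all of Ccnd2 or Ccne1, and none of those past the threshold changed sign. The side of the threshold changed for 2 with a pseudocount of 0.1, 3 with none (Cdkn1a at P8, -0.61, among them), 1 under upper-quartile scaling and 3 under quantile normalization. Within a stage no library could be left out, since each condition has 1. In the paired fit over the stages, 3 of the 10 genes had an adjusted p under 0.05, 1 after quantile normalization, and between 0 and 3 when a stage was left out, with 0 without P5. Low values of Ccnd2 and Ccne1 limit their ratios most, and absolute depth is unknown.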
